A study of Mus musculus with 3 samples.

Results

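The genes described here carry the interferon response, from its receptors to the genes it induces. They were chosen by name: 43 genes were listed and 41 of them are protein-coding in the RefSeq table of the mouse build mm10, out of 21900 protein-coding genes. Mx1 and Mx2 are transcribed pseudogenes in that table and were left out. The 41 members are 4 receptor chains, 8 JAK kinases and STAT factors, 7 interferon regulatory factors (IRF), and 22 induced genes, which include RNA sensors, effectors and feedback inhibitors.

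Interferons bind paired receptor chains, and the receptors activate JAK kinases bound to their tails. The kinases phosphorylate STAT factors, which enter the nucleus, partly together with Irf9, and switch on genes through the interferon-stimulated response element (ISRE) or the gamma-activated site (GAS). Many of these genes already have a basal level in blood stem cells, and in mice type I interferon drives resting stem cells into division.

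The study located RXRA, a nuclear receptor of the retinoid X family that pairs with other nuclear receptors on DNA, by CUT&RUN. In this assay a nuclease tethered through an antibody cuts next to the bound protein, and the freed fragments are sequenced. The HSC library was made from 10000 haematopoietic stem cells (Lin-cKit+Sca1+CD48-CD150+), and the 2 MPP libraries from 50000 multipotent progenitors each (Lin-cKit+Sca1+CD150-). All cells came from bone marrow of C57BL/6 mice of about 10 months, pooled from 3 or 4 animals, with the genotype written as "VavCre+; WT" in the sample fields and as "Rxrabfl/fl (WT)" in the protocols; Vav-driven Cre acts in blood cells. All cells had 1 h of bexarotene, an RXR agonist, at 1 mM as the labels give it, so neither an untreated state nor a library with a control antibody was analysed here. Whether the MPP libraries came from separate pools is not stated in the labels. Peaks carry no expression level, so the sorted identities could not be checked against marker genes.

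HSC had 4047 peaks, against 29848 and 19570 in the MPP libraries. A background level, solved from the peak values, was 0.604 fragments in HSC, against 2.87 and 1.08 in the MPP libraries. The MPP levels were 4.75 and 1.79 times that of HSC. These ratios of background stand in for depth ratios below, and reads themselves were not counted. The lowest pileup in the HSC list was 5 fragments, against 10 and 6 in the MPP lists. The authors' q for the weakest peak was 0.0995 in HSC, against 0.0971 and 0.0993 in MPP, so the lists hold weak calls. Values below are the authors' fold enrichment at the summit, which ranks peaks within a list and is no measure of change between libraries. With 1 HSC library no difference from MPP has a replicate check, and no p-value is given.

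Promoters of 6 genes are shown because the results turn on them, each from 250 bases before to 50 bases after a RefSeq start (GRCm38.p6), 5′ to 3′ on the strand of the gene. Capitals mark the ISRE core (GAAA, then NN, then GAAA, where N is any base), TTCNNNGAA (GAS) and AGGTCA (a nuclear receptor half-site), read on either strand. Ifngr1 (chr10:19591699-19591998, plus strand) and Stat2 (chr10:128270248-128270547, plus strand) had a peak over the start in all 3 libraries. Ifit2 (chr19:34550444-34550743, plus strand) had its peak in HSC alone. Trim30a had an HSC peak at its upstream start (chr7:104465144-104465443, minus strand) and MPP peaks near its downstream start (chr7:104446076-104446375, minus strand). The MPP replicate 1 peak lay wholly upstream of that downstream window, and the MPP replicate 2 peak reached into it. Cxcl10 (chr5:92348840-92349139, minus strand) had peaks in both MPP libraries alone, and Isg15 (chr4:156200769-156201068, minus strand) had no peak at its ends in any library.
Ifngr1: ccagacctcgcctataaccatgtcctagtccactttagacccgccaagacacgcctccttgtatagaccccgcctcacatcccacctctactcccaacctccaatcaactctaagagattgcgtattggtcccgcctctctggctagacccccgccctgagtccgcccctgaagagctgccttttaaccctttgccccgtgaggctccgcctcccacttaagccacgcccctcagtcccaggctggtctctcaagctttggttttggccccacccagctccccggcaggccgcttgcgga
Stat2: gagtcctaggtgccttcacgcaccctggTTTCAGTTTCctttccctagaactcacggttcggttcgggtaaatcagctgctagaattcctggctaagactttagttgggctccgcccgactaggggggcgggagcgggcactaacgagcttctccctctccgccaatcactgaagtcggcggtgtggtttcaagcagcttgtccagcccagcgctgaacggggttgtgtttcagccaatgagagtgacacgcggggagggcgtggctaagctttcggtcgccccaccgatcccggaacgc
Ifit2: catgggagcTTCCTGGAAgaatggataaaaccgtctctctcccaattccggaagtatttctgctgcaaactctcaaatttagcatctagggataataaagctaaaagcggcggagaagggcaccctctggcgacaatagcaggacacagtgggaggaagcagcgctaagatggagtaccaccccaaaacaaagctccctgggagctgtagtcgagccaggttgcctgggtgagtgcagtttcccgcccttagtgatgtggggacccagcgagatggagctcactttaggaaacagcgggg
Trim30a, upstream start: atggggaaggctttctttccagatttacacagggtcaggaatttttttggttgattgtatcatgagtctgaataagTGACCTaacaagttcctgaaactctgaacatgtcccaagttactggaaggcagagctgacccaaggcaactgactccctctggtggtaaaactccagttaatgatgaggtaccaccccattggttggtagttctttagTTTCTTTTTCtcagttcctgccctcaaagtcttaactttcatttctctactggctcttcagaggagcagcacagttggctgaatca
Trim30a, downstream start: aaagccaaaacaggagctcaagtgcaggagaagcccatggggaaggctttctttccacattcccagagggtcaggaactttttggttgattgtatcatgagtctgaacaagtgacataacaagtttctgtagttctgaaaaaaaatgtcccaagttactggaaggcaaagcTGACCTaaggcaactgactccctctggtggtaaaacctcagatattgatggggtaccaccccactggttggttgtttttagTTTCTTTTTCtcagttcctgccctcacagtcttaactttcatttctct
Cxcl10: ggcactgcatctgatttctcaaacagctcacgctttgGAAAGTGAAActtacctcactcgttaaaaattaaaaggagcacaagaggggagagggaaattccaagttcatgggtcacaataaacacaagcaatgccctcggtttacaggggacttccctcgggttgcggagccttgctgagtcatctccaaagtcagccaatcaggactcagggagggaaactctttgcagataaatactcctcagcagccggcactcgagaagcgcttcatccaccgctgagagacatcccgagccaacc
Isg15: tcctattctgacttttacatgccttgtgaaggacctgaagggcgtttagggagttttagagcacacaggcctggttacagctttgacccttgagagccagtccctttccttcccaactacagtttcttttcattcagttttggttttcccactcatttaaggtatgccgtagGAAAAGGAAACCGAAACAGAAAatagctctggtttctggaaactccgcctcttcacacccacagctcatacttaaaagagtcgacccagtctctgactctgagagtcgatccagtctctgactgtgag

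In HSC, 9 of the 41 members had a peak within 1 kb of a gene end (22.0%, 95% exact binomial interval 10.6 to 37.6), beside 8.21% of all protein-coding genes. They were Ifnar2, Ifngr1, Jak1, Stat2, Stat3, Mavs, Oasl1, Ifit2 and Trim30a. In each MPP library 24 members had one (58.5%, 42.1 to 73.7), beside 41.2% of all genes in replicate 1 and 36% in replicate 2. Both MPP libraries marked 19 members (46.3%), beside 28.9% of all genes, and all 3 libraries marked 6 (14.6%), beside 5.83%. Intervals cover counting error only, and the members were chosen by name, so the shares describe these genes and carry no test.

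The 6 members marked in all 3 libraries were Ifnar2, Ifngr1, Jak1, Stat2, Mavs and Oasl1. Stat3 was the 1 member (2.44%) marked in HSC and in exactly 1 MPP library, replicate 2, beside 2.08% of all genes. HSC and neither MPP library marked 2 members (4.88%), Ifit2 and Trim30a, beside 0.297% of all genes. Both MPP libraries and not HSC marked 13 members (31.7%), beside 23.1% of all genes, and exactly 1 MPP library without HSC marked 9 (22.0%), beside 17.3%. The other 10 members had no gene-end peak in any library, where 31 of 41 (75.6%) had one in at least 1 library, beside 48.6% of all genes.

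**Figure D1:**
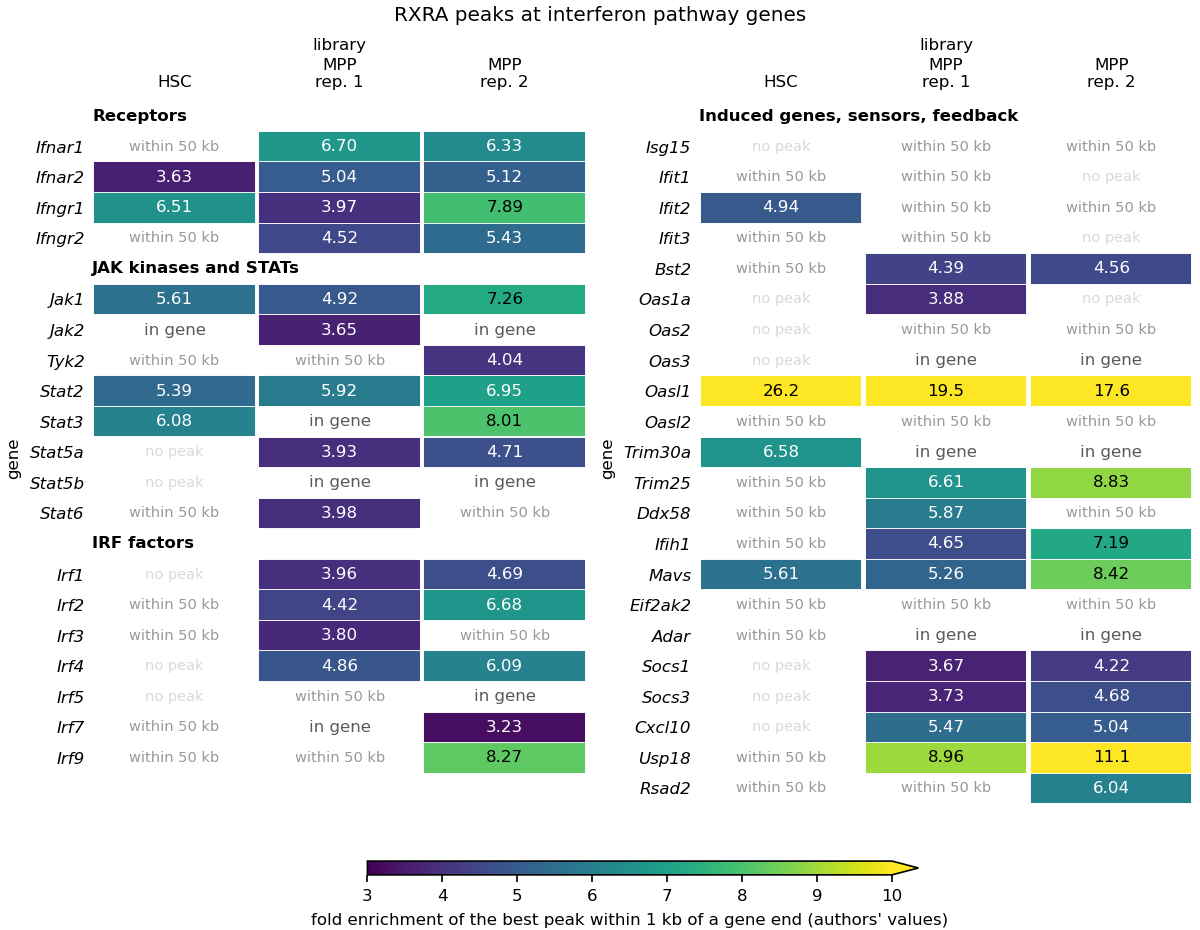
Fold enrichment (colour and number) of the best RXRA peak within 1 kb of a gene end, for 41 genes in rows and the 3 libraries in columns; grey words give the nearest class of peak where no gene-end peak was called, and "no peak" means none within 50 kb. The HSC column holds 9 values and each MPP column 24, and Oasl1 has the highest fold in every column, at 26.2 in HSC against 19.5 and 17.6 in MPP.

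Each role can be set beside the same shares of all genes, 8.21% in HSC against 41.2% and 36% in MPP. Of the 4 receptor chains, 2 were marked in HSC and 4 in each MPP library. Of the 8 kinases and STAT factors, 3 were marked in HSC and 5 in each MPP library. Of the 7 IRF factors, 0 were marked in HSC, which allows a share of up to 41.0%, against 4 and 5 in MPP. With 7 genes a count of 0 cannot be told from the HSC share of all genes. Of the 22 induced genes, 4 were marked in HSC, against 11 and 10 in the MPP libraries. Groups of 4 to 22 genes leave wide intervals that overlap between roles in every library, and no test between roles was made.

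**Figure D2:**
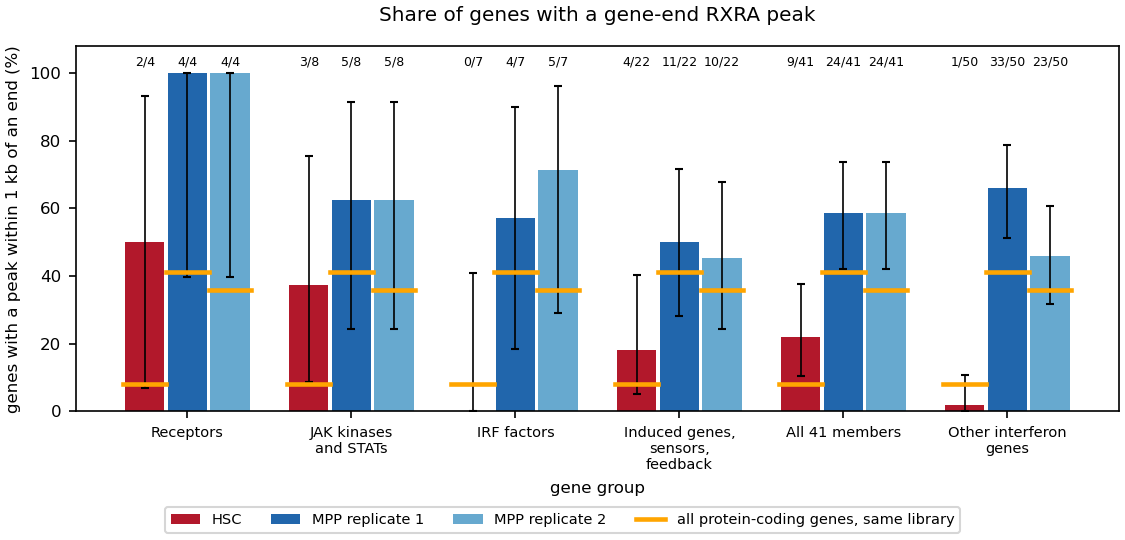
Percent of genes with an RXRA peak within 1 kb of a gene end (y axis) by gene group (x axis) in HSC, MPP replicate 1 and MPP replicate 2; black bars are 95% exact binomial intervals, orange lines the percent of all protein-coding genes in the same library, and counts stand on top. All 41 members stand at 22.0% in HSC against 58.5% in each MPP library, and the 50 other interferon genes at 2% in HSC against 66% and 46% in MPP.

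At the receptors, Ifngr1, the ligand-binding chain of the type II receptor, had the stronger of the 2 gene-end peaks in HSC. Its fold was 6.51 in HSC (12 fragments), against 3.97 in MPP replicate 1 and 7.89 in MPP replicate 2 (24 fragments). The MPP replicate 1 list splits this promoter into 3 peaks, at 3.83, 3.97 and 3.88, where the other two lists each hold 1 peak. The summits nearest the start lay 93 bp upstream of it in HSC, against 182 and 162 bp upstream in MPP.

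Ifnar2, a chain of the type I receptor, had a weak peak at its start in all 3 libraries. The start peak had a fold of 3.63 in HSC, against 3.50 and 4.91 in MPP. The HSC peak had 5 fragments, the lowest pileup of that list, and ranked 3962 of 4047 by fold. In MPP the higher of its gene-end peaks lay at the other end, which Il10rb, a receptor chain for interleukin-10 and lambda interferons, shares. Their folds were 5.04 and 5.12, and these peaks did not overlap each other. A site upstream of Ifnar2 lay 5.58 kb from its start by the HSC summit. Its fold was 3.67 in HSC, against 6.64 and 6.74 in MPP. In both MPP lists that is above the gene-end peaks of Ifnar2. In HSC the site had 5 fragments, as the start peak did, and a q of 0.0819, so their order there carries no weight.

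Ifnar1, the other type I chain, and Ifngr2, the signalling chain of the type II receptor, had no gene-end peak in HSC. Ifnar1 had peaks of 6.70 and 6.33 over its start in MPP, with 26 and 15 fragments. Ifngr2 had peaks of 4.52 and 5.43 in MPP, with summits 105 and 552 bp upstream, and these did not overlap each other.

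Ifnar2, Il10rb, Ifnar1 and Ifngr2 lie in a row on chromosome 16 (chr16:91372783-91564007, 191 kb). This cluster held 3 peaks in HSC, against 16 and 11 in the MPP libraries. The strongest in each library was an intergenic site past the end of Ifnar1 (chr16:91523009-91523388 in HSC), with a fold of 7.99 in HSC (14 fragments) against 9.76 and 9.69 in MPP. Its HSC summit lay 37.9 kb from the start of Ifnar1 and 23.9 kb before that of Ifngr2. It ranked 295 in the HSC list, far above the Ifnar2 start peak in the same cluster. Which gene, if any, this site acts on is not measured by these libraries.

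**Figure D3:**
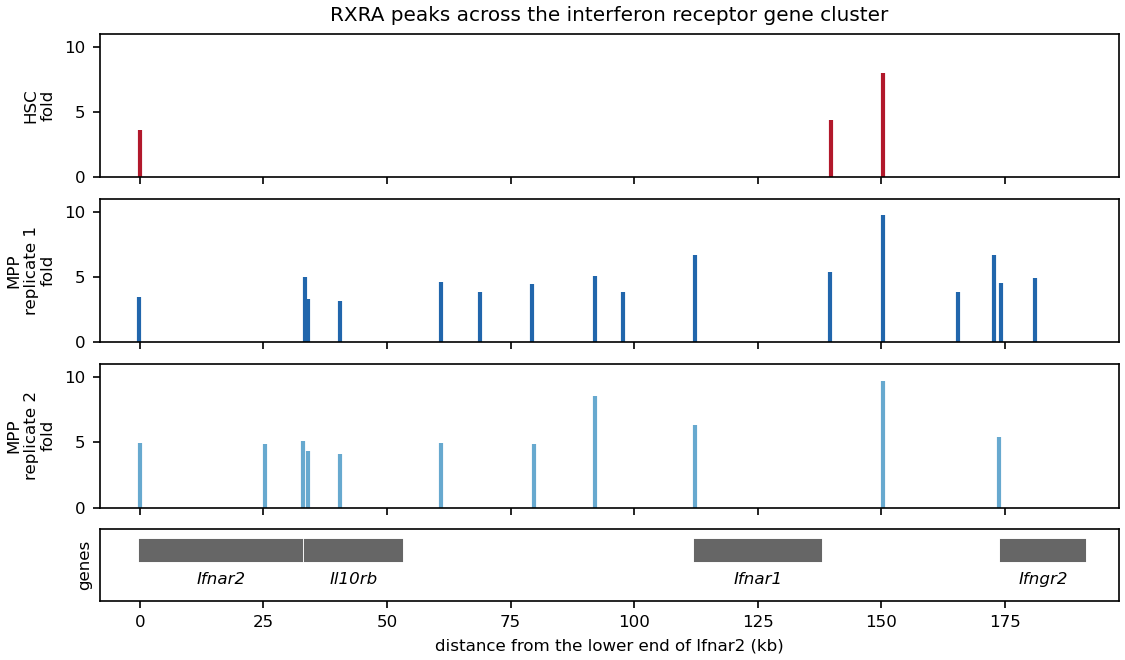
RXRA peaks across the receptor cluster: x axis, distance in kb from the lower end of Ifnar2; y axis of the upper panels, fold enrichment at each summit in HSC, MPP replicate 1 and MPP replicate 2; bottom panel, gene extents. The tallest line in each panel is the intergenic site at about 150 kb, with a fold of 7.99 in HSC against 9.76 and 9.69 in MPP.

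Among the kinases, Jak1, which serves both receptor types, was marked at its start in every library. Its fold was 5.61 in HSC, against 4.92 and 7.26 in MPP, with summits 31 bp downstream of the start in HSC, against 10 and 36 bp upstream in MPP. Inside Jak1 the MPP libraries shared a site 92.4 kb into the gene, at 7.71 and 8.53, which had no HSC peak. Jak2, a kinase of the type II receptor, had no HSC peak at its ends. It held a site 19.5 kb inside the gene in all 3 libraries, at 5.38 in HSC against 4.65 and 5.77 in MPP. That was the only peak inside a member, away from its ends, in the HSC list. Tyk2, a kinase of the type I receptor, had an end peak in MPP replicate 2 alone, at 4.04.

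Among the STAT factors, Stat2, which works in type I signalling with Irf9, was marked at its start in every library. Its fold was 5.39 in HSC, against 5.92 and 6.95 in MPP, and the 3 peaks overlapped, with summits 127 bp upstream in HSC, against 93 and 119 bp in MPP. The Stat2 peak also lies within 1 kb of an end of Apof. Stat3, which answers interleukin-6 and many other cytokines, had a fold of 6.08 in HSC and 8.01 in MPP replicate 2, with summits 36 and 38 bp downstream of the start. In MPP replicate 1 its peaks lay inside the gene, at up to 5.04, and none at the start. At the Stat3 start the MPP libraries thus differed from each other.

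Stat5a and Stat5b, neighbours that carry thrombopoietin and other cytokine signals, had no HSC peak in the gene or at its ends. Stat5a had peaks of 3.93 and 4.71 in MPP at its second RefSeq start. Stat5b had none at its ends, but in MPP it had peaks 764 and 710 bp upstream of an internal start, at 4.71 and 6.05, and a stronger site inside the gene, at 7.82 and 7.13. Stat6, the factor of interleukin-4 signalling, had end peaks in MPP replicate 1 alone, at 3.98 and 2.83. In HSC the Stat6 neighbourhood held a peak of 4.43 at 25.4 kb from its start.

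All IRF peaks at gene ends came from the MPP libraries. Irf1, an inducible activator, had folds of 3.96 and 4.69. Irf2, which in mice restrains interferon responses of blood stem cells, had folds of 4.42 and 6.68. Irf4, a lymphoid regulator, had folds of 4.86 and 6.09. Peaks of the MPP libraries at these 3 genes lay within 157 bp of the start at their nearest. Irf9, the DNA-binding partner of Stat2, had a peak in MPP replicate 2 alone, at 8.27, which it shares with an end of Rnf31. Irf7, the inducible amplifier of type I interferon, had internal peaks in both MPP libraries at 5.71 and 6.79, and a weak end peak of 3.23 in MPP replicate 2. Irf3 had a peak of 3.80 in MPP replicate 1, shared with an end of Bcl2l12, and Irf5 had a peak of 6.01 inside the gene in MPP replicate 2.

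Among induced genes, Oasl1 had by far the strongest peak of the gene set. In mice Oasl1 restrains the translation of Irf7. Its fold was 26.2 in HSC, against 19.5 and 17.6 in MPP, with pileups of 92 fragments in HSC (95% exact Poisson interval 74.2 to 113), against 136 and 74 in MPP. The peaks (chr5:114922293-114922742 in HSC) ranked 17 of all HSC peaks, against 32 and 53 in the MPP lists. Their summits fell within 8 bp of each other, 785 bp upstream of the start in HSC against 787 and 793 bp in MPP. The site is thus upstream of the promoter window and not at the start itself. It belongs to the 1% of peaks of highest fold in each list, and without those peaks Oasl1 leaves the HSC count, which becomes 8. What sets this site apart was not tested.

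Ifit2 and Trim30a were the members marked in HSC and in neither MPP library. Ifit2, an induced RNA-binding antiviral protein, had a peak of 4.94 in HSC, with 7 fragments and a summit 56 bp upstream of its first start, against no MPP peak there. The cluster from Ifit2 to Ifit1 (99.5 kb) held that HSC peak and 1 peak of 4.00 in MPP replicate 1. Trim30a, a mouse gene that restrains Toll-like receptor signalling, had a peak of 6.58 in HSC with 10 fragments, 89 bp downstream of its upstream start. In MPP it had peaks of 5.61 and 5.74, with 22 and 11 fragments, 315 and 327 bp before its downstream start. The HSC and MPP peaks of Trim30a do not overlap. By RefSeq starts rather than gene ends, Trim30a is marked in all 3 libraries, which leaves Ifit2 as the HSC-alone case. Both Trim30a windows hold TTTCTTTTTC, an ISRE core read on the other strand, and share a run of 31 bases. Trim30a and the Ifit genes also have close paralogs, and how reads that match several places were handled is not stated.

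Of the 4 genes of RNA sensing, Mavs alone was marked in HSC, beside 8.21% of all genes, and 4 genes are too few to set apart from that share. Mavs, the adaptor on mitochondria that relays the sensors, had folds of 5.61 in HSC, against 5.26 and 8.42 in MPP, with overlapping peaks 145 bp upstream of the start in HSC and 154 and 123 bp upstream in MPP. Ifih1, a sensor of long double-stranded RNA, had 4.65 and 7.19 in MPP and no HSC peak at its ends. Trim25, a ubiquitin ligase that acts on the sensor Ddx58, had 6.61 and 8.83 in MPP and none in HSC at its ends. Ddx58 itself had 5.87 in MPP replicate 1 alone.

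Usp18, Socs1 and Socs3, the feedback genes, had no gene-end peak in HSC, beside 8.21% of all genes. So few genes cannot be told from that share. Usp18, which removes Isg15 from proteins and dampens the type I receptor, had the strongest gene-end peaks of the members in MPP after Oasl1, at 8.96 and 11.1, with 40 and 24 fragments. Socs1 and Socs3, inhibitors of JAK kinases, had weaker MPP peaks. Socs1 had 3.67 and 4.22, and Socs3 had 3.73 and 4.68, and in neither gene did the best peaks of the MPP libraries overlap. In the Socs3 case both MPP lists hold a peak of 3.73 at the far end of the gene.

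Among the remaining induced genes, Bst2, which tethers virus particles, had 4.39 and 4.56 in MPP, and Cxcl10, a chemokine, had 5.47 and 5.04. Rsad2, an antiviral enzyme, had 6.04 in MPP replicate 2 alone, and Oas1a, an oligoadenylate synthetase, had 3.88 in MPP replicate 1 alone. Adar, an RNA editing enzyme, was not marked at its ends, but in MPP it had peaks of 8.57 and 5.69, 85 and 94 bp upstream of an internal RefSeq start. Oas3 had internal peaks of 4.94 and 7.91 in MPP. Isg15, Ifit1, Ifit3, Oas2, Oasl2 and Eif2ak2, which are 6 of the 41 members, had no peak in the gene or at its ends in any library. The other 35 (85.4%) had one in at least 1 library, beside 61.4% of all genes. The nearest peak to Isg15, the ubiquitin-like modifier, was 1206 bp away in MPP replicate 2 and 35063 bp away in MPP replicate 1, and HSC had none within 50 kb.

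Gene-end peaks of the members sat at transcription starts about as closely as those of other genes. Of members whose gene-end peak had its summit within 1 kb of a RefSeq start, 8 of 9 in HSC (88.9%) had it within 250 bp, beside 79.8% of all such genes. In MPP the shares were 17 of 21 (81.0%, beside 80.8%) and 21 of 23 (91.3%, beside 83.8%). The median position among these members was 56 bp upstream in HSC, against 75 and 100 bp upstream in MPP. Counting RefSeq starts only, for the 39 members with an entry, 9 were marked in HSC, against 25 and 26 in MPP. All protein-coding genes gave 8.57% in HSC, against 42.1% and 38% in MPP. Both MPP libraries marked the starts of 20 (51.3%, beside 30.1%), and all 3 libraries those of 7 (17.9%, beside 6.01%).

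**Figure D4:**
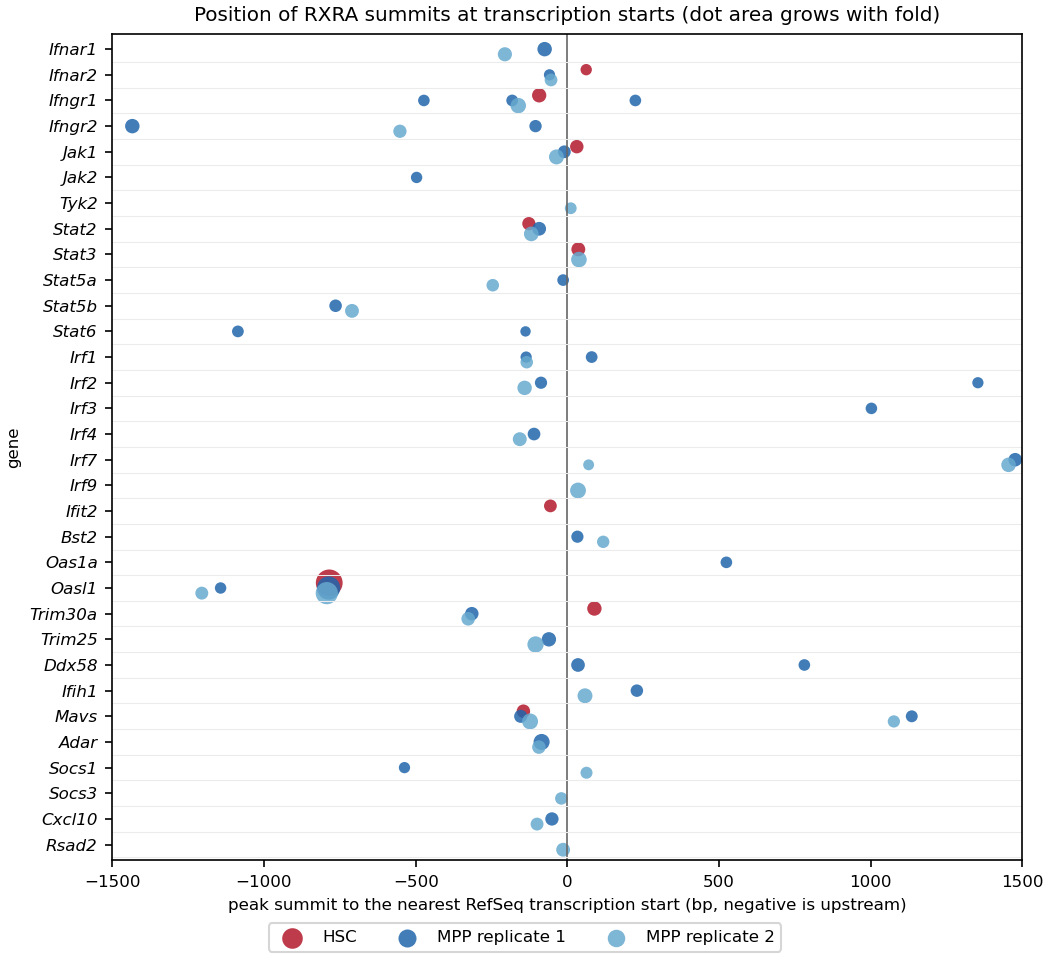
Distance in bp of each RXRA summit from the nearest RefSeq start (x axis, up to 1500 bp each way) for the genes in rows, with HSC, MPP replicate 1 and MPP replicate 2 in colours and dot area growing with fold. Most dots lie near 0; the Oasl1 summits stack at 785 bp upstream in HSC against 787 and 793 bp in MPP, and Trim30a has its HSC and MPP dots at different starts.

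The peaks of the members were of middling strength for their lists. The best gene-end fold of the 9 marked members had a median of 5.61 in HSC, beside 5.50 over all marked genes. In MPP the medians were 4.58 beside 4.86 in replicate 1, and 6.21 beside 6.14 in replicate 2. Where HSC and an MPP library marked the same member, the best peaks overlapped at 5 of 6 members with MPP replicate 1 (83.3%, beside 84.7% of all genes marked in both) and 6 of 7 with MPP replicate 2 (85.7%, beside 93.0%). The exception was Ifnar2, whose best MPP peak lay at the other end. Between the MPP libraries the best peaks overlapped at 14 of 19 members (73.7%, beside 89.0%), with Ifnar2, Ifngr2, Irf1, Socs1 and Socs3 as the exceptions.

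MPP pileups were also scaled to the depth of HSC. Those of the 18 members marked in MPP replicate 1 and not in HSC, divided by the depth ratio, came to 2.94 to 8.41 fragments (median 4.42), and 15 of them fell below 5, the lowest HSC pileup. The 6 members marked in both HSC and MPP replicate 1 scaled as low, with the same median of 4.42 and 5 of them below 5. For the 17 members marked in MPP replicate 2 and not in HSC the scaled pileups were 5.58 to 13.4 (median 7.82), and 0 fell below 5. The 7 members marked in both HSC and MPP replicate 2 scaled to a median of 11.7, and 0 fell below 5. In MPP replicate 1 the scaled pileup thus did not separate members with an HSC peak from those without. In MPP replicate 2 the median was higher with an HSC peak (11.7) than without (7.82), with overlapping ranges. The part of depth in the missing HSC peaks was not tested. When each MPP list was shortened to the 4047 peaks of highest fold, 9 members were marked in HSC, against 4 in MPP replicate 1 and 8 in MPP replicate 2. All protein-coding genes then gave 8.21% in HSC, against 8.83% and 10.1% in MPP. Only Oasl1 stayed marked in all 3 lists at that length.

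Inside genes and in their neighbourhood, too, fewer members had a peak in HSC than in MPP. Inside genes, outside the end windows, 1 member had a peak in HSC (2.44%), beside 4.89% of all genes, against 12 (29.3%, beside 26.4%) and 13 (31.7%, beside 18.6%) in MPP, and both MPP libraries marked 9 (22.0%, beside 15.7%). In the gene or at its ends, 10 members had a peak in HSC (24.4%, beside 12.7%), against 30 in each MPP library (73.2%, beside 55% and 47.3%). Within 50 kb, 29 members had a peak in HSC (70.7%), beside 34% of all genes, against 41 (100%, beside 78.8%) and 38 (92.7%, beside 72.7%) in MPP, and 27 had one in all 3 libraries (65.9%, beside 32.6%). The median member had 1 peak within 50 kb in HSC, against 6 and 4 in MPP. The median of all genes was 0 in HSC, against 3 and 2 in MPP. Neighbouring members share peaks, as Ifnar1 and Ifngr2, Oasl1 and Oasl2, and Ifit2 and Ifit3 do in HSC. The members thus are not separate observations, and their peaks in total were 40 distinct ones in HSC, against 220 and 154 in MPP.

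Of the peaks of MPP replicate 1 inside or within 50 kb of members and at no member end, 92 overlapped an MPP replicate 2 peak. Of these 92 sites 21 also overlapped an HSC peak, and 29 lay at an end of another protein-coding gene. The same shares over all peaks common to the MPP libraries were not counted, so these counts do not set the sites apart. The site at the end of Cmpk2, the neighbour of Rsad2, had 6.74 in HSC, against 8.23 and 10.9 in MPP. A site at the end of Scpep1, 44.0 kb before Trim25, had 6.83 in HSC, against 7.81 and 12.1 in MPP. A site 44.8 kb before Irf3 had 5.86 in HSC, against 7.83 and 10.5 in MPP. Irf3 and Trim25 had no HSC peak at their own ends.

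The promoter windows of the members were richer in interferon elements than promoters at large. Both strands were searched, and motifs may overlap. The ISRE core was in 16 of 47 windows (34.0%), in 15 of 39 genes, beside 3.35% of 21263 windows of protein-coding genes. The GAS letters TTCNNNGAA were in 21.3%, beside 7.69%, and AGGTCA was in 19.1%, beside 14.7%. The E-box CACGTG was in 2.13%, beside 7.84%, and the ETS core GGAAGT was in 38.3%, beside 24.8%. A match is only a run of letters, and these genes were listed for their interferon response.

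In each library the share of marked members was lower among those with an ISRE core in the window than among those without, over few genes and with no test. Of the 15 with one, 2 had a gene-end peak in HSC (13.3%), against 8 (53.3%) and 7 (46.7%) in MPP. Of the 24 without, 7 had one in HSC (29.2%), against 15 (62.5%) and 16 (66.7%) in MPP. All protein-coding genes together gave 8.21% in HSC, against 41.2% and 36% in MPP. Their shares with and without a core were not counted, so the split among members has no background of its own. All of the 15 members with a core but Stat2 and Irf2 are induced genes, so the split partly follows role. Trim30a counts as unmarked in MPP here, though an MPP replicate 2 peak covers the ISRE core at its downstream start. HSC peaks covered 2 of the 23 ISRE core sites, at Stat2 and at the upstream start of Trim30a, against 6 and 10 in the MPP libraries. The Stat2 site, TTTCAGTTTC in the sequence printed above, lay inside a peak in all 3 libraries. The Cxcl10 site lay in a peak in both MPP libraries alone, and the 3 overlapping Isg15 sites in none. Of 10 AGGTCA sites, 0 lay in an HSC peak, against 2 in each MPP library. Overlapping sites were counted separately. The share of such sites covered at all genes was not counted, so these counts have no background beside them.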

How the data were processed

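RXRA CUT&RUN was analysed in 1 HSC and 2 MPP libraries. The submitters' processing notes name MACS2 2.1.4, Bowtie2 2.3.4.1, cutadapt 1.9.1, Trim Galore 0.4.2 and the build mm10. Not given in the sources used here are settings, duplicate handling and any control library. The authors deposited 1 peak list per library, with a fold ratio, −log10 p-value, −log10 q-value, score and summit offset per peak. The authors' fold was used as given, their −log10 q for the stricter list, and the deposited score not at all.

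From fold and p each peak was solved for a whole pileup (99.98% of HSC peaks, against 100% and 99.99% in MPP, within 0.001 in −log10 p), and the lowest local background gave the depth ratio. A gene was marked where a peak overlapped its window by at least 1 bp, checked with bedtools 2.31.1 and on simulated data. Scripts used Python 3.11.15, pandas 2.3.3 and scipy 1.17.1. Gene extents and the 300-base promoter windows are RefSeq tables of GRCm38.p6 (39 of 41 members matched), without exons. Intervals are exact at 95%. Alternatives were windows of 500 bp and 5 kb, limits of 25 and 100 kb, a q of 1e-05, equal list lengths, removal of the top 1%, summits, starts only and each library left out.

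The members and lists were chosen with earlier results of these data known. Values are given for members with a gene-end peak in HSC or in both MPP libraries, and for all receptors and STAT genes. Of 50 other interferon genes up to 8 are named, by number of libraries and then fold. Other genes and distal sites were named after their values were seen.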

Additional observations from a re-analysis of the deposited data

How the results depend on the processing

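Of 63 recounts under other settings, 52 stayed within 1.5 times the reported count and 11 fell. A q at or below 1e-05 kept 1180 peaks in HSC, against 15971 and 11816 in MPP. Gene-end members were then 3 in HSC (Ifngr1, Oasl1 and Trim30a, beside 2.0% of all genes). MPP replicate 1 marked 15 members (beside 27.4% of all genes), both MPP libraries 12 (beside 17.3%) and all 3 libraries 1 (beside 1.01%). At that q HSC had 0 members with a peak inside the gene, beside 1.44% of all genes. In the gene or at its ends 3 members had an HSC peak (beside 3.39%), and 11 had one within 50 kb (beside 11.2%). With the MPP lists at HSC length, MPP replicate 1 marked 4 members (beside 8.83% of all genes) and replicate 2 marked 8 (beside 10.1%). Both MPP lists marked 3 (beside 4.75%), and all 3 lists marked 1 (beside 1.44%). The shares of all genes fell too, by construction of shorter lists. Leaving out MPP replicate 1 gave 7 members in all remaining libraries (beside 7.57% of all genes). Leaving out MPP replicate 2 gave 6 (beside 6.16%). The MPP library that remained marked 24 members each time, beside 36% of all genes in replicate 2 and 41.2% in replicate 1. No paired analysis was possible because the HSC group holds 1 library, so the groups share fewer than 2 replicate numbers. Pileups of 5 to 12 fragments stand behind the gene-end HSC peaks of members other than Oasl1, so each of those calls rests on few fragments. A peak at a gene end may belong to a neighbour, as at Stat2 and Apof, Irf9 and Rnf31, Irf3 and Bcl2l12, and Ifnar2 and Il10rb.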

Other observations

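Many interferon genes outside the member list had gene-end peaks in MPP, and Cmpk2 alone of them had one in HSC. Of 50 other genes, which include guanylate-binding proteins, antigen presentation genes and further inhibitors, 1 had a gene-end peak in HSC (2%), against 33 (66%) and 23 (46%) in MPP, beside 8.21% of all genes in HSC, against 41.2% and 36% in MPP. Both MPP libraries marked 20 of them (40%), beside 28.9% of all genes, not always with overlapping peaks, as at Isg20 and Ptpn2. Cmpk2, an induced nucleotide kinase, was the 1 gene of these 50 marked in all 3 libraries, with folds of 6.74 in HSC, against 8.23 and 10.9 in MPP. Trim21, an antibody receptor of the cytosol, had 7.49 and 11.9 in MPP. Pias1, which inhibits STAT factors, had 6.72 and 8.60. Genes of class I antigen presentation were among them: Nlrc5, their activator, had 6.61 and 6.54, and B2m, the light chain, had 6.39 and 7.81. Isg20 had 6.41 and 7.38, from peaks that did not overlap each other. Parp12 had 5.85 and 6.50, and Ifi35 had 5.83 and 7.0. Some of these genes share peaks, Tap1 with Psmb8 and Psmb9, and Il10rb with the member Ifnar2, so they are not separate observations. No test was made between these genes and the members, or between their HSC share and that of all genes.

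The pseudogenes Mx1 and Mx2, left out of the counts, had no peak in HSC within 50 kb. In MPP, Mx2 had end peaks of 4.25 and 4.24, and Mx1 had none at its ends.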
